A study of Caenorhabditis elegans with 2 samples.

Results

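The genes described here are *mig-10* and 9 genes whose products act with MIG-10 or with small GTPases such as the Rac proteins and CDC-42 on actin, among them *unc-34*, *abi-1*, *ced-10*, *mig-2*, *cdc-42*, *unc-73*, *wsp-1* and *unc-115*. They are 10 of the 19985 protein-coding genes in the Ensembl annotation of WBcel235, and they were listed by name and function. The many intronic peaks of *mig-10* were already known when it was set beside its partners, so the number and place of its regions are given as a description. For each gene, the EGL-43 peaks touching its body or the preceding 5000 bp were collected. The data are a chromatin immunoprecipitation and sequencing (ChIP-seq) experiment on whole L3 larvae, titled wild-type, in which the endogenous *egl-43* gene carries *gfp* (genotype *zh136[egl-43::gfp]*), with an anti-GFP antibody. Synchronized larvae were grown for 27 h at 25°C, and 2 independently grown populations gave 2 replicates of 1 condition. No input or untagged library was analysed here, so there is no comparison between conditions, and a peak from whole larvae does not tell in which cells EGL-43 was bound.

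These GTPases are molecular switches. Bound to GTP, Rac proteins (CED-10 and MIG-2) and CDC-42 promote branched and linear actin assembly at the leading edge. MIG-10, the homolog of mammalian Lamellipodin, is an adaptor that binds active Rac and recruits actin regulators such as UNC-34 and ABI-1 to the membrane. In *C. elegans*, these proteins guide migrating neurons and growing axons, and in the anchor cell (AC) several of them are polarized by the netrin receptor UNC-40 towards the basement membrane that the cell breaches.

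MACS2 had listed 8394 peaks in replicate 1 and 10925 in replicate 2. The value given for a peak is its fold enrichment, the ratio of the read pileup at its summit over the local background estimated by MACS2. Its median was 3.66 over the peaks of replicate 1 and 3.71 over those of replicate 2. Values of a shared region are given below in the order of replicate 1 and replicate 2. Overlapping peaks were merged into regions, and the 7259 regions with a peak of each replicate are called shared. Read totals are not part of the lists, and the depth is therefore unknown. The log2 ratio of replicate 2 over replicate 1 had an SD of 0.31 over all shared regions and lay between -0.49 and 0.75 for 95% of them. This spread serves below as the measure of error of the fold enrichment. It leaves out the 4391 regions with a peak in 1 replicate and so can understate the differences between the replicates. The submitters' tags on the lists differ, and the tag of replicate 2 alone names a q threshold, although the methods describe both replicates alike. Whether fixation or the peak threshold differed between the replicates could not be settled, which bears on this spread and on every count of regions found in a single replicate.

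EGL-43 was bound in both replicates at 7 of the 10 genes, among them *mig-10*, *unc-34*, *mig-2*, *cdc-42*, *unc-73* and *unc-115*. In the same window, 34.4% of all protein-coding genes had at least 1 such region (33.7 to 35.1%, exact Clopper-Pearson interval at 95%, counting error only). The interval takes genes as independent, although a region can be counted for several genes, and it does not cover the uncertainty of 7 of 10. A peak of either replicate was present at 9 of the 10 genes, against 45% of all protein-coding genes. The 7 genes had 42 shared regions, of which 16 were at *mig-10* and 12 at *unc-73*. The other 5 genes had 2 to 4 each. *abi-1*, *ced-10* and *wsp-1* had none.

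**Figure D1:**
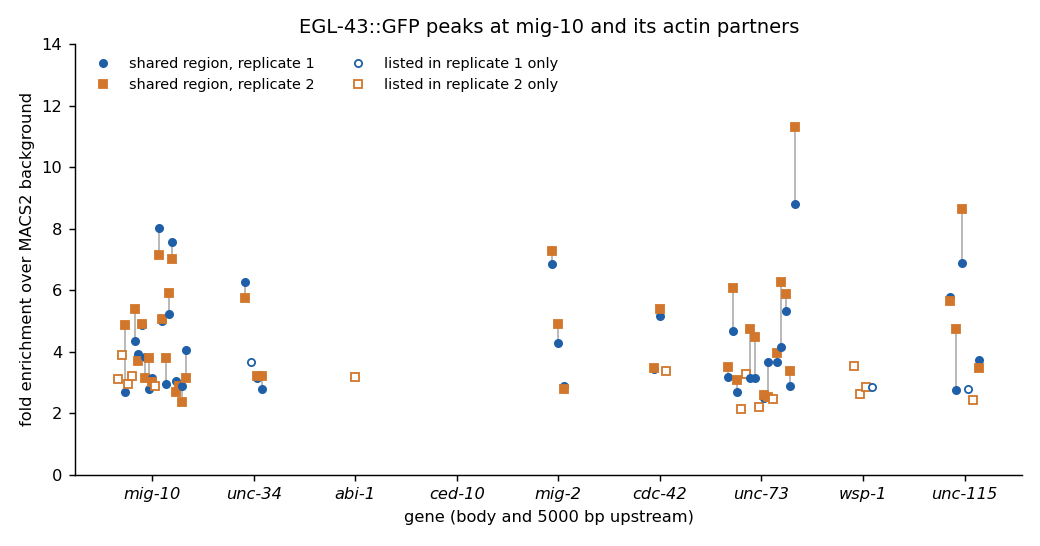
Fold enrichment (linear axis) of every region at *mig-10* and the partners described, with a circle for replicate 1, a square for replicate 2 and a line joining the values of a shared region, and open symbols for regions listed in a single replicate. The highest pair of values is that of *unc-73* (8.81 and 11.3), most regions at *mig-10* lie under 6, and no open symbol is above 3.88.

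Long genes meet more peaks, and *mig-10* (26737 bp) and *unc-73* (32440 bp) are among the longest 0.44% and 0.225% of protein-coding genes. Shared regions were therefore also counted per 10 kb of window. This density was 5.04 at *mig-10*, 2.10 over the other 9 genes and 0.721 over all protein-coding genes, where a region is counted for every gene whose window it touches. *mig-2* (4.23), *unc-115* (3.56), *unc-73* (3.21) and *cdc-42* (2.94) followed *mig-10*, and *unc-34* (1.56) had the lowest density of the 7 bound genes. Without *unc-73*, the other 8 genes had 1.62 regions per 10 kb, so the density outside *mig-10* did not rest on *unc-73* alone. In the gene body alone, *mig-10* had 5.98 regions per 10 kb, against 0.593 over all protein-coding genes. At least 16 shared regions were found at 2 protein-coding genes, *mig-10* included. No test was made of these differences, since the genes were listed with earlier results of these data known.

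**Figure D2:**
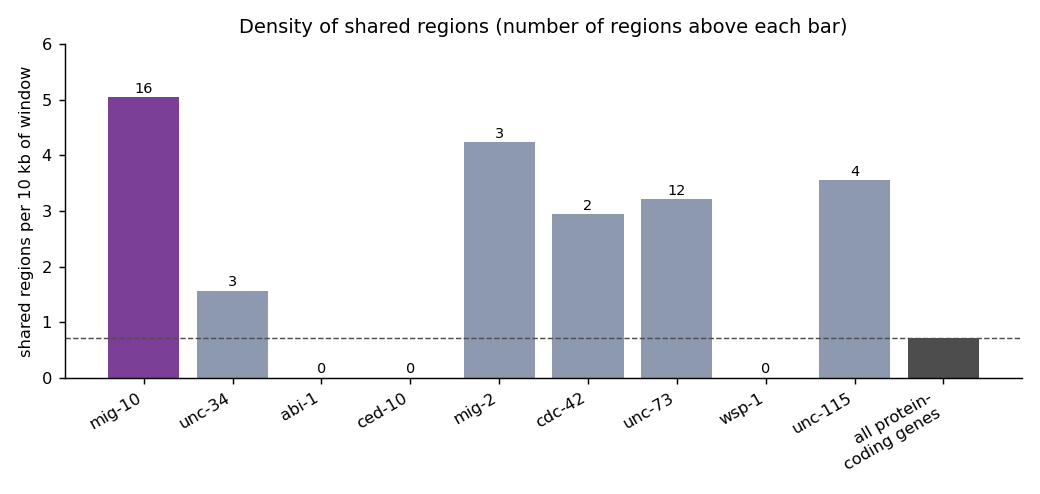
Shared regions per 10 kb of gene body plus 5000 bp upstream, as bars from 0, for *mig-10* (purple), the partners described (grey) and all protein-coding genes pooled (dark bar and dashed line), with the number of regions above each bar. *mig-10* has 5.04 and the pooled genes 0.721 per 10 kb, and 3 genes have none.

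*mig-10* (WBGene00003243) lies on the plus strand of chromosome III from 8279101 to 8305837 (WBcel235) and has 5 annotated transcripts of 3 isoforms, MIG-10A, MIG-10B and MIG-10C. All 16 shared regions had their summits within introns of the longest transcript. Of the 26 shared regions at the other 9 genes, 12 had an intronic summit (46.2%), and over all protein-coding genes it was 18.5% of the assigned regions. These shares, and those near transcript starts given below, were not adjusted for gene length. The body of *mig-10* is 26737 bp, against 5000 bp upstream. The *mig-10* regions were spread over 5 introns, with neighbouring summits 372 to 4434 bp apart (median 1015 bp). Their length was 181 to 801 bp.

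The strongest region of *mig-10* was in intron 2, from 8290934 to 8291644, and reached a fold enrichment of 8.03 and 7.16. Its summits, at 8291086 and 8291129, were 2930 bp upstream of the transcript start at 8294037, from which a transcript of isoform A begins. The second strongest, in intron 3 from 8299070 to 8299500, reached 7.58 and 7.004, with summits at 8299232 and 8299209. It lay 972 bp upstream of 8300192, the start of the only annotated isoform B transcript. The pair differed by less than the spread between the replicates, and both stood above the other 14 regions in each replicate. Another region of intron 3, 1821 bp upstream of the isoform B start, had 5.23 and 5.91. A further region, whose summit was 480 bp upstream of the isoform A start at 8294037, had 4.997 and 5.06. This was the single *mig-10* region with a summit within 500 bp of an annotated transcript start, against 3 of 26 regions at the other 9 genes (11.5%) and 24.3% of the regions assigned to all protein-coding genes.

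Near the summits of some, but not most, *mig-10* regions lie short words that zinc finger proteins of the EVI1 family and AP-1 factors are known to bind. AGATGAG is the site of the C-terminal zinc fingers of mammalian EVI1, the homolog of EGL-43, and ACAAGATA that of the N-terminal fingers. TGACTCA and its reverse complement TGAGTCA are the AP-1 site, which FOS and JUN proteins occupy. The 3 *mig-10* regions that hold AGATGAG closest to the midpoint of both replicates' summits are shown because they include the strongest 2. Words found on either strand are in capitals (CTCATCT is AGATGAG on the minus strand), and all sequences are the plus strand of WBcel235 as given by RefSeq.
*mig-10* intron 2, strongest region (chrIII:8291057-8291157): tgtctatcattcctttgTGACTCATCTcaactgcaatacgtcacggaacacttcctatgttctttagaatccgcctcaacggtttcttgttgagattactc
*mig-10* intron 3, second strongest region (chrIII:8299170-8299270): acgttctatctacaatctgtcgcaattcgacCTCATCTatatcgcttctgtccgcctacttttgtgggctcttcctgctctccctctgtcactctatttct
*mig-10* intron 2, upstream of an isoform A start (chrIII:8293507-8293607): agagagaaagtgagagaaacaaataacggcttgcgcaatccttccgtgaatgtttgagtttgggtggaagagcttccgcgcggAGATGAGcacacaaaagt

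AGATGAG occurred within 100 bp of the summit, taken midway between the replicates, in 4 of the 16 *mig-10* regions (25%), in 2 of the 26 regions at the other genes (7.69%) and in 6.53% of all shared regions. In the strongest *mig-10* region the capitals form 1 run, because the AP-1 word TGACTCA, from 8291074 to 8291080, and the EVI1 word on the minus strand, from 8291077 to 8291083, share 4 bases. In the second strongest region the word begins 19 bp before the midpoint of the summits, and in the region upstream of the isoform A start it begins 33 bp after it. The summits of this last region were 118 bp apart, so the midpoint was the summit of neither replicate. The fourth region with the word had a fold enrichment of 3.14 and 3.02, and its word begins 86 bp from the midpoint. Thus the word was not limited to the regions of high enrichment, and 12 of the 16 regions did not have it. The AP-1 word was present in 1 *mig-10* region (6.25%), in 4 of 26 at the other genes (15.4%) and in 5.52% of all shared regions. The other 2 AGATGAG words were at shared regions of *mig-2* (exon 2) and *unc-115* (1162 bp upstream), and the other 4 AP-1 words were at *unc-34*, *mig-2* and, at 2 regions, *unc-73*. ACAAGATA was found in none of the 42 regions and in 0.551% of all shared regions. A word is a match of letters and not a measured binding site.

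The remaining *mig-10* regions had at most 5.40 in either replicate. Towards the 5′ end, a region in intron 1, 1465 bp from the gene start, had 2.68 and 4.87. Its log2 ratio of 0.86 exceeded the upper end of the 95% range, and it was the only *mig-10* region outside that range. Intron 2 held 6 more. Their fold enrichments were 4.36 and 5.40 at 5899 bp from the gene start, 3.92 and 3.71 at 6729 bp, and 4.88 and 4.89 at 8624 bp. Those between 9639 and 10809 bp from the start ranged from 2.79 to 3.81. Intron 3 held a region at 16312 bp with 2.96 and 3.798. The 4 regions downstream of the isoform B start, in introns 5 and 6, had between 2.36 and 4.07 and included the lowest of the 16 by the lower of both values, at 2.87 and 2.36, which ranked 7085 of all 7259 shared regions.

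Ranked in this way, 9 of the 16 regions ranked below the median of all shared regions and none in the highest 10%. The strongest, at rank 766, missed the highest 10% narrowly. The regions of the locus were thus many but mostly not strong. A region at least as strong as the strongest of *mig-10* was found at 5.81% of protein-coding genes, with no allowance for gene length. The median of the lower replicate value was 3.14 at *mig-10*, 3.56 at the other 9 genes and 3.69 over all shared regions. Replicate 2 alone listed 5 further regions at *mig-10*, with a fold enrichment of 2.87 to 3.88, whereas replicate 1 listed none without a partner. The region from 8276889 to 8277113, was the only region upstream of the gene. The region from 8279650 to 8280005 had its summit 682 bp downstream of the isoform C start at 8279108. Hence the 3 starts at the 5′ end of the gene had no shared summit within 500 bp. Noncoding RNA genes annotated inside *mig-10* touched 5 of the 16 shared regions, and their part in the signal was not tested.

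**Figure D3:**
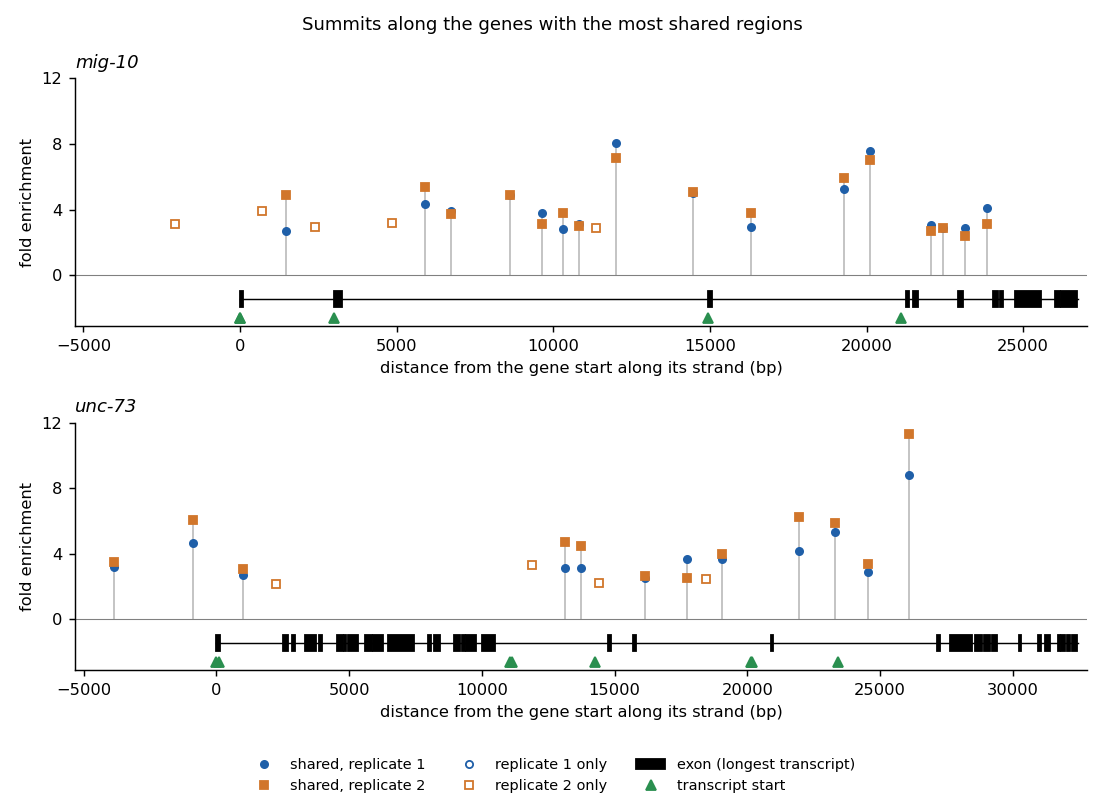
Fold enrichment of each region against the distance of its summit from the gene start, along the gene's strand, at *mig-10* and *unc-73*, with circles for replicate 1, squares for replicate 2, open symbols for a single replicate, black boxes for exons of the longest transcript and green triangles for transcript starts. The 16 shared *mig-10* summits run from 1465 to 23836 bp, while those of *unc-73* leave the stretch between the first intron and 13120 bp free.

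UNC-73, the homolog of Trio, is a guanine nucleotide exchange factor that loads Rac proteins with GTP. Its gene (WBGene00006805, chromosome I, 3999300 to 4031739, minus strand) is the longest of the 10 and has 10 annotated transcripts from 8 starts. It had 12 shared regions, 10 of them intronic. The strongest, from 4005106 to 4006694 in intron 20, had 8.81 and 11.3, with summits at 4005635 and 4005636. It took rank 371 and was higher than any *mig-10* region in each replicate. It also touched F55C7.2, a protein-coding gene nested in *unc-73*, whose start was 200 bp from the summit, so the region cannot be given to *unc-73* alone. The next in intron 20 were a region of 5.31 and 5.88 that covered the start of transcript F55C7.7d.1 at 4008336, and a region of 4.14 and 6.25 lying 1459 bp upstream of that start. Upstream of the gene, a region at 893 bp had 4.68 and 6.06. The other 8 shared regions stayed between 2.502 and 4.73. As at *mig-10*, most regions were thus intronic and 1 region lay outside the 95% range. Here it was in intron 19, with a log2 ratio of -0.53 (3.66 and 2.53). Replicate 2 alone listed 4 more regions, of 2.15 to 3.29.

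The GTPase genes differed from each other. MIG-2 is a Rac-like GTPase, and *mig-2* (WBGene00003239, chromosome X, 11548608 to 11550692, plus strand) had 3 shared regions in a window of 7085 bp. The fold enrichment was 6.85 and 7.26 at 1800 bp upstream (11546389 to 11547046), 4.27 and 4.89 at 519 bp upstream (midpoint of summits 246 bp apart), and 2.87 and 2.78 in exon 2. The replicates thus ordered the regions alike, with the highest farthest from the gene. That region touched the neighbour *selt-1.1*, whose start was 313 bp from the summit. CDC-42, which activates the WASP protein WSP-1, is encoded by *cdc-42* (WBGene00000390, chromosome II, 7616452 to 7618245, plus strand). Its 2 shared regions were both upstream, with 5.17 and 5.40 at 823 bp (7615469 to 7615794) and 3.43 and 3.46 at 1883 bp, where the start of R07G3.7 was nearer. A peak of 3.38 at 133 bp upstream was in replicate 2 only.

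CED-10 is the Rac1 homolog that acts redundantly with MIG-2 in many migrating cells and axons. *ced-10* (WBGene00000424, chromosome IV, 3506328 to 3509527, minus strand) had no peak of either replicate in its window of 8200 bp. The nearest peak was a shared region 963 bp beyond the upstream limit, whose summit, 6341 bp from the gene start, had 7.07 and 6.84. Of the Rac genes, *mig-2* thus had shared regions within the window, and *ced-10* had none. The lists name only peaks past the caller's threshold, so weaker binding at *ced-10* would not be seen.

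The strongest regions of *mig-2* and *cdc-42* are shown for comparison with those of *mig-10*, in the same orientation and with words in capitals. The *mig-2* window has the AP-1 word, beginning 86 bp from the midpoint of the summits, and the *cdc-42* window has none of the words searched.
*mig-2* 1800 bp upstream (chrX:11546758-11546905): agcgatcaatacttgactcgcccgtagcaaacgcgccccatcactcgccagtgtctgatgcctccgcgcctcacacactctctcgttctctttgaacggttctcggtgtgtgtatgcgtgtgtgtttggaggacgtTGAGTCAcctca
*cdc-42* 823 bp upstream (chrII:7615579-7615679): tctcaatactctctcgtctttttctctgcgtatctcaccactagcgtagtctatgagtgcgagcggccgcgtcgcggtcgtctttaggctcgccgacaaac

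The effectors and adaptors also fell into genes with and without a shared region. UNC-34 is the Ena/VASP protein, which extends actin filaments and binds MIG-10. *unc-34* (WBGene00006770, chromosome V, 982706 to 996914, plus strand) has 6 transcript starts, but its strongest region was upstream of all of them, at 3938 bp (978638 to 978924), with 6.27 and 5.74. The remaining pair was lower, with 3.14 and 3.21 at 1402 bp upstream, where the AP-1 word was found, and 2.79 and 3.21 in intron 1. A peak of 3.66 between the upstream regions was listed in replicate 1 alone. Beyond the upstream limit, the next shared region was 7314 bp from the start and had 12.4 and 10.9, higher than any region assigned to *unc-34*. The body of 14209 bp had 1 shared region, against 16 at *mig-10*. Both upstream regions were nearer to the start of Y50D4C.12 than to that of *unc-34*.

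UNC-115, the actin-binding abLIM protein that acts downstream of Rac in axons, is encoded by *unc-115* (WBGene00006839, chromosome X, 10146892 to 10153142, plus strand). Its strongest region, from 10146358 to 10147114, covered the gene start, with the summit at 75 bp upstream, and had 6.89 and 8.65. It was the only strongest region of the 7 bound genes with a summit within 500 bp of an annotated start of its gene. The other 3 had 5.79 and 5.65 at 1738 bp upstream, 2.76 and 4.73 at 1162 bp upstream, and 3.75 and 3.46 in intron 2. Weak peaks of 2.79 in intron 1 (replicate 1) and 2.43 in intron 2 (replicate 2) had no partner. The second of these 3 had a log2 ratio of 0.77, outside the 95% range. tRNA genes lie in the first and the third, where 28.3% and 33.7% of the 36-base words around the summit occur more than once in the genome. The part of these repeats in the signal was not tested.
*unc-115* at the gene start (chrX:10146767-10146867): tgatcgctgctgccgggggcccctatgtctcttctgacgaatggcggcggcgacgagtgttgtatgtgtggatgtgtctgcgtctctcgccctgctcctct
*unc-34* 3938 bp upstream (chrV:978718-978818): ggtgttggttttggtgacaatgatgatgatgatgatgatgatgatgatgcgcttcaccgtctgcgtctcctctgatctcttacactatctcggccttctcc

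ABI-1, a subunit of the WAVE complex that binds MIG-10, and WSP-1, which activates the Arp2/3 complex, are encoded by genes without a shared region. *abi-1* (WBGene00015146, chromosome III, 5690105 to 5692740, minus strand) had 1 peak, in replicate 2 only, with 3.19 at 163 bp upstream, where the neighbour *arle-14* starts 3 bp from the summit. A shared region with 3.72 and 4.49 began beyond its 3′ end, 20 bp outside the window. *wsp-1* (WBGene00006957, chromosome IV, 8188904 to 8198951, minus strand) had 4 regions, each in a single replicate. Of these, 3 belonged to replicate 2 (3.54 at 998 bp upstream, 2.62 at 756 bp upstream and 2.86 in intron 3) and 1 to replicate 1 (2.87, also in intron 3). The intron 3 peaks of the replicates had their summits at 8195452 in replicate 1 and 8196044 in replicate 2 and did not overlap.

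**Figure D4:**
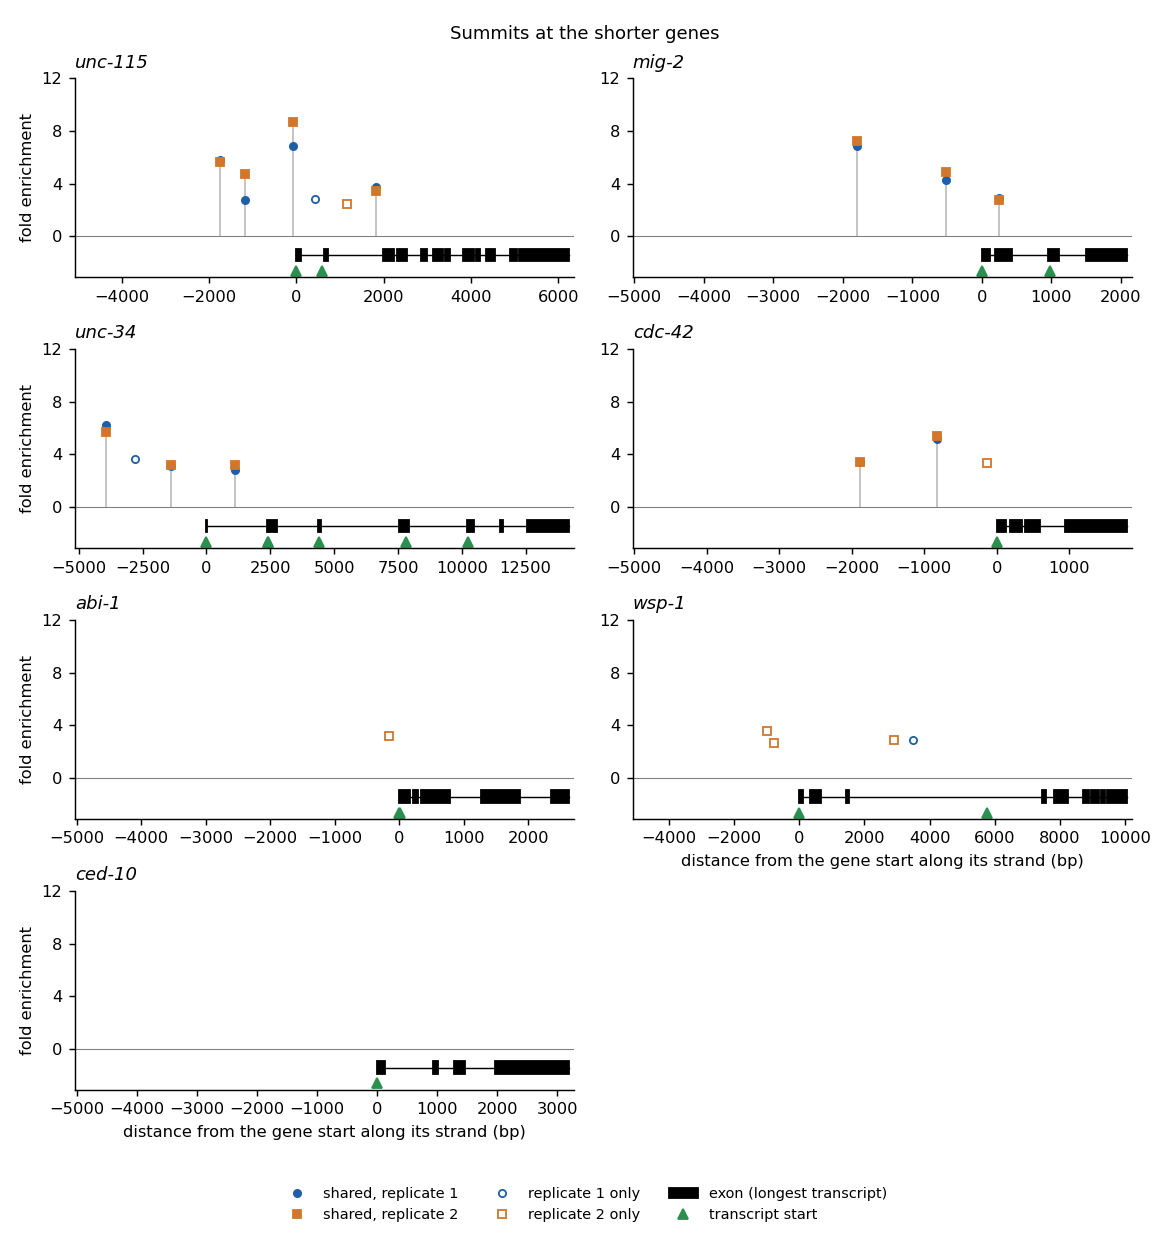
Fold enrichment of each region against the distance of its summit from the gene start (bp, along the gene's strand) at the shorter genes described, with the symbols of the map of *mig-10* and *unc-73*. The region at the start of *unc-115* reaches 8.65, most regions lie upstream of the genes, and *ced-10* has no peak.

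When the bound genes described above were ordered by the fold enrichment of their strongest region, *unc-73* came first (8.81 and 11.3). *mig-10* (8.03 and 7.16), *unc-115* (6.89 and 8.65) and *mig-2* (6.85 and 7.26) came next, and their replicate values overlapped, so their order is not resolved. *unc-34* (6.27 and 5.74) and *cdc-42* (5.17 and 5.40) were the lowest. In replicate 1, each step between neighbours in this order was below the SD of the log2 ratio between the replicates. The first and last places are therefore uncertain as well. Of the 42 regions, 2 were in the highest 10% of all shared regions, among them the *unc-73* region in intron 20. In 21 of the 42, 8 of them at *mig-10*, the nearest protein-coding gene start was that of another gene, internal transcript starts not counted. Summits were upstream of the gene in 13 of the 42, in an intron in 28 and in an exon in 1. At the 8 genes other than *mig-10* and *unc-73*, 11 of 14 summits were upstream (78.6%), close to the 75.5% of the regions assigned to all protein-coding genes.

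The replicates shared most of their peaks at the 10 loci, as over all peaks. Of the 47 peaks of replicate 1 at these genes, 44 belonged to a shared region (93.6%), and of the 59 of replicate 2, 43 did (72.9%). Over all peaks, the shares were 89.6% and 67.8%. The summits of the replicates were a median of 36.5 bp apart in the 42 regions and 25 bp in all shared regions. The largest gap in the 42 was 575 bp, at a region in intron 19 of *unc-73*. The fold enrichment was higher in replicate 2 in 26 of the 42 regions and in 7 of the 16 *mig-10* regions, and 3 of the 42 log2 ratios lay outside the 95% range. The 19 regions with a single replicate had between 2.15 and 3.88, and 16 of them came from replicate 2, which has the longer list and may have had another threshold. The chromosomes differed as well: 44.7% of the protein-coding genes on X (*mig-2* and *unc-115*) had a shared region in the window, against 43.0% on III (*mig-10* and *abi-1*), 41.0% on I (*unc-73*), 32.9% on II (*cdc-42*), 31.3% on IV (*ced-10* and *wsp-1*) and 23.4% on V (*unc-34*).

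A further list of 31 genes of the same machinery, the WAVE and Arp2/3 complexes, Rac activators, other GTPases, kinases, F-BAR proteins, cofilin, myosin contractility and the actins, was examined in the same way. Of these, 25 had a shared region (80.6%, against 34.4% of all protein-coding genes). Their density was 1.92 regions per 10 kb, against 0.721 over all protein-coding genes. The list was also chosen with earlier results of these data known. The shares were not adjusted for gene length, and no test was made. A region near neighbouring actin genes was counted for each of them. The strongest were at *wip-1*, which encodes the WASP-interacting protein (13.02 and 12.1, 4566 bp upstream and overlapping *larp-1*), at *unc-60*, which encodes cofilin (10.9 and 10.8, 415 bp upstream and overlapping F53E2.2), and at *toca-1*, an F-BAR protein that links CDC-42 to WSP-1 (9.19 and 9.35, 3271 bp upstream). No shared region was found at *arx-4*, *arx-5* and *arx-7* of the Arp2/3 complex, at the GTPase genes *rac-2* and *chw-1*, or at the actin gene *act-5*. None of the 31 genes had more than 7 shared regions, against 16 at *mig-10* and 12 at *unc-73*.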

How the data were processed

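EGL-43::GFP ChIP-seq was analysed from 2 replicate peak lists. According to the extended methods, the authors used BWA 0.7.7 for alignment to ce11, SAMtools 0.1.19 for conversion to BAM, and MACS2 (version not given in the sources used here) for peaks of each replicate at a false discovery rate of 0.05, although no deposited q-value exceeds 0.00395 in replicate 1 or 0.00688 in replicate 2. The deposited lists give a fold enrichment ratio, −log10 p-values and q-values, a score that was not used and the summit offset, and they precede the authors' curvature, BEADS and blacklist steps. Positions are counted from 1.

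Peaks overlapping by at least 1 bp were merged, and each region was given, per replicate, its highest fold enrichment. Genes came from Ensembl release 115 and sequences from RefSeq, both on WBcel235, and peaks were checked to lie within the chromosomes. Windows were the gene body plus 5000 bp upstream. Introns were numbered in the longest transcript. The position of a shared region relative to genes is the midpoint of the summits of both replicates. Words were searched in 201 bp windows. The genes, the further list and the words were chosen with earlier results of these data known. Of the 10 genes, 1 enters the totals but is not reported here by itself. The others are named with their strongest region, for *mig-10* every shared region is described, and from the further list the strongest 3 and the genes with none are named. No statistical test was run, since there is 1 condition. Python 3.11.15, numpy 2.4.6, scipy 1.17.1 and matplotlib 3.10.9 were used, and merging, assignment and word search were tested on simulated data.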

Additional observations from a re-analysis of the deposited data

How the results depend on the processing

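Alternatives were upstream limits of 500 and 2000 bp, a reciprocal overlap of 50%, summits within 100 bp of each other, a q-value of at most 1e-05, a fold enrichment of at least 4, each replicate alone, the nearest protein-coding gene only, the gene body only, other windows for the words and ranking by p-value. For the nearest gene, a summit within a gene body was assigned to that gene, and other summits to the nearest gene start. Intronic regions nearer to the start of another gene were therefore kept. The 42 shared regions became 18 when both replicates had to reach a fold enrichment of 4 (6 of them at *mig-10*), because that removes the weaker peaks, and stayed between 31 and 39 under the other alternatives that kept both replicates. Replicate 1 alone gave 47 peaks, and 8 of the 10 genes had a peak, against 36.6% of all protein-coding genes. Replicate 2 alone gave 59 peaks, and 9 of the 10 genes had a peak, against 43.1%. With 500 bp upstream, 5 of the 10 genes had a shared region, since regions such as those of *cdc-42* lie farther away, and 18.3% of all protein-coding genes did. The other alternatives that kept both replicates left 7. The share of all protein-coding genes was then 19.5% at a fold enrichment of 4. It was 25.2 to 33.2% with 2000 bp upstream or with the overlap, summit or q-value limit, and was not computed for the nearest gene only. The density at *mig-10*, 2.40 times that of the other 9 genes, was 1.95 to 3.37 times under the alternatives, and *mig-10* kept at least 14 regions except at a fold enrichment of 4. All shared *mig-10* regions lie in the gene body. The upstream limits, the nearest gene only and the gene body only therefore could not lower its count, and they say nothing about how firm it is. Of the 31 further genes, 17 to 25 had a region under alternatives that kept both replicates, with 17 at a fold enrichment of 4. Without replicate 1 or replicate 2 it was 25 to 27. The shares of all protein-coding genes given above for each alternative are the background of these counts too. The AP-1 word was in 1 region and not 5 when the window was 50 bp either side, which searches fewer bases. The strongest region of each of the 7 genes was the same by p-value. No paired analysis was possible because there is 1 condition. The unknown depth limits what can be said of genes without a peak.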

Other observations

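The overlap of the EVI1 word and the AP-1 word in the strongest *mig-10* region was seen after the sequences had been read. Both words were present in 44 of the 7259 shared regions, and in 21 of these (0.289% of all shared regions) they shared bases. Of the 42 regions at the 10 genes, the *mig-10* region in intron 2 was the only such region.

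Regions of high enrichment flank some windows without being assigned to the genes. Beyond the 3′ end of *wsp-1*, which had no shared region, a shared region 4990 bp outside the window had 11.3 and 12.04 in replicates 1 and 2, and it ranked 119 of 7259. At *unc-115*, a shared region 5551 bp beyond the 3′ end had 10.2 and 10.3.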
